A study of Sus scrofa with 24 samples.

Results

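Gene levels in the spleen were set against those in patch-free jejunum of the same 6 pigs. Of the 24 one-colour arrays of the study, 12 enter this comparison: 6 labelled Spleen and 6 labelled Jejunum, each pair sharing an animal number (68, 69, 70, 71, 73 or 75). The other 12 arrays held liver (Liver) and jejunum with a patch (Peyer) from these pigs. All animals were crossbred pigs aged 10 weeks, weaned at 28 days and fed a standard diet freely, with no genotype, treatment or time contrast. Tissue pieces were flash-frozen after slaughter, so each sample mixes every cell type of its piece.

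The spleen filters blood. Its white pulp holds B cell follicles and T cell zones set up by chemokines, while macrophages of its red pulp take up worn red cells and return their iron. The jejunum absorbs food: tall enterocytes carry digestive enzymes and transporters on a brush border, goblet cells release mucus, endocrine cells release hormones, and muscle layers with their own nerves surround the lining. Outside its patches the jejunum still holds many lymphocytes, mostly plasma cells that make IgA and cytotoxic T cells within the epithelium.

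RNA was labelled with Cy3 and hybridised to Agilent pig arrays carrying 60305 different probes of 60 bases. A level below is the log2 signal of a probe minus the 75th percentile of its array, so 0 marks that percentile. A difference is the Spleen mean minus the Jejunum mean of these levels (n = 6 each), with the standard error (SE) of the limma fit after ±. The 75th percentile of signal lay between 680.9 and 1001.2 on the Jejunum arrays and between 679.1 and 1098.1 on 4 Spleen arrays. It was 416.9 for Spleen 68 and 275.4 for Spleen 71. Spleen arrays lay on 3 slides shared with Liver and Jejunum arrays on 3 others shared with Peyer, so tissue and slide cannot be told apart.

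Marker genes matched both labels, with intestinal markers raised in 1 spleen. Of 16 epithelial markers, 13 were on the array, and their mean level was 6.72 to 6.99 on the Jejunum arrays. On the Spleen arrays it was between -4.57 and -3.60 for 5 animals and -1.50 for animal 73. Of the 13, MEP1A and SLC15A1 were above background on none of the 6 Spleen arrays. Hepatocyte markers also varied between spleens, from -5.71 in animal 70 to -1.49 in animal 68, while Jejunum stayed between -5.24 and -4.06. B cell markers averaged 0.54 to 1.21 in Spleen and -4.30 to -3.53 in Jejunum. The defining spleen stroma genes were represented by TCF21 alone, and no listed mesothelial marker was on the array.

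**Figure D1:**
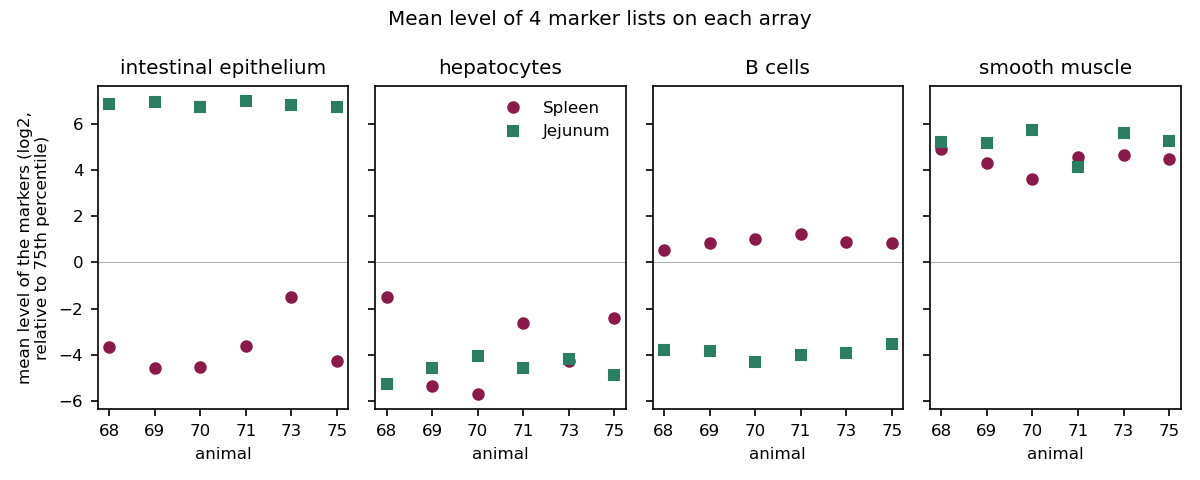
Mean level of 4 marker lists (y axis, log2 relative to the array's 75th percentile) on the Spleen (circles) and Jejunum (squares) array of each animal (x axis). Epithelial markers sit at -1.50 in Spleen 73 against -3.60 or lower in the other 5 spleens, and hepatocyte markers reach -1.49 in Spleen 68.

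Genes that differed at least 2-fold split about evenly between the tissues, but the largest differences lay on the jejunal side. Of 10719 named genes tested, 3315 (30.9%) were called, meaning an adjusted p below 0.05 (limma, Benjamini-Hochberg) and at least a 2-fold difference. Higher in Spleen were 1649 (15.4%) and higher in Jejunum 1666 (15.5%). This split moved with scaling, to 1492 and 1787 under median centring. The median difference over all tested genes was 0.13. The Spleen and Jejunum ranges did not overlap for 4954 genes (46.2%). The list counts below are to be read beside these shares of all genes. Fitted differences above 16-fold numbered 80 towards Spleen and 369 towards Jejunum, and those above 256-fold 3 and 99. These counts take dim genes at their measured signal, so they include folds that are not known. Of the 1666 genes higher in Jejunum, 1146 were above background on all 6 Spleen arrays. A gene well above background on all 6 arrays of one tissue and on none of the other was found 30 times for Spleen and 133 times for Jejunum. For such genes a lower bound of the fold is given, written "at least", since the dim side has only a limit. A list median with bounds sets such genes at that bound, while the plain medians take them at their measured signal.

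**Figure D2:**
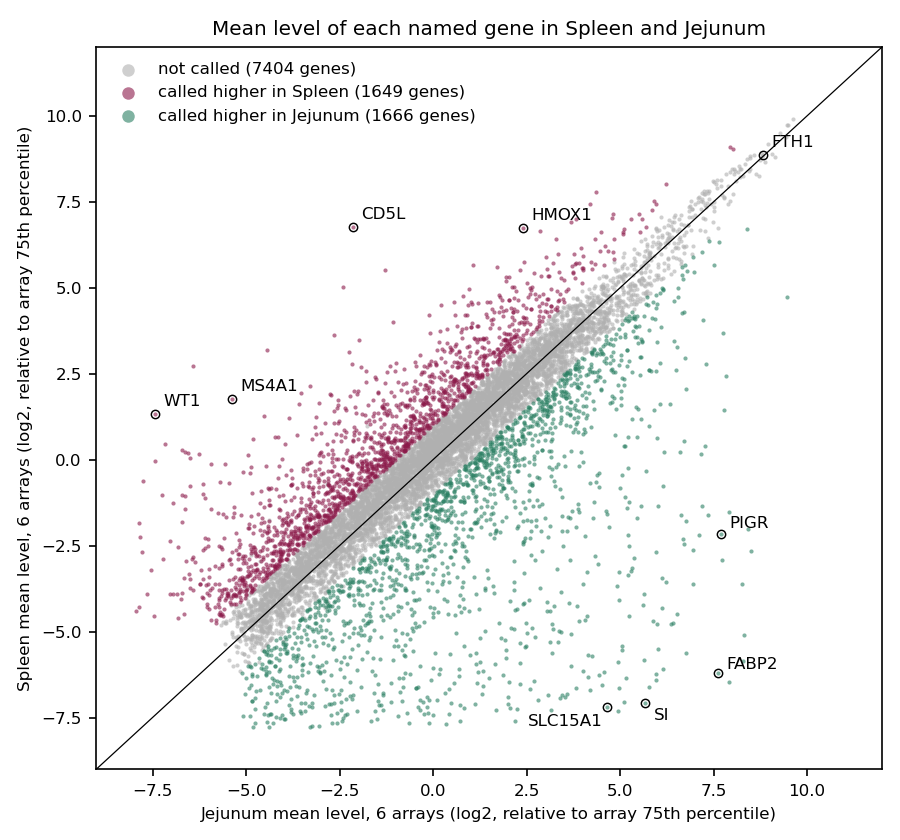
Mean level of each of 10719 named genes in Jejunum (x axis) and Spleen (y axis), log2 relative to the array's 75th percentile, coloured by call; the line marks equal levels. Jejunal genes such as SI and FABP2 reach down to the floor of the Spleen arrays, while CD5L and HMOX1 stand out on the Spleen side and FTH1 lies on the line.

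Spleen 73 held many of the jejunal transcripts seen in a single spleen. Among the 1666 genes higher in Jejunum, 106 were above background on exactly 1 Spleen array, and for 72 of them that array was Spleen 73. All 369 genes more than 16-fold higher in Jejunum were called without Spleen 73. They were chosen for that difference with Spleen 73 included, so a kept 2-fold call says little about that array. Their median fitted difference was -6.24 with it and -6.32 without it. Dim genes enter at their measured signal, so neither is a bound.

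The probes of 3 genes that mark the contrast are printed here, since each reads one defining function: MS4A1 (CD20) of B cells, SI (sucrase-isomaltase) of the brush border, and RBP2, the retinol carrier of enterocytes.
MS4A1: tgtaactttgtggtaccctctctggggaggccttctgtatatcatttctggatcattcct
SI: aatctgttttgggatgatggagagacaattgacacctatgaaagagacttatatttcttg
RBP2: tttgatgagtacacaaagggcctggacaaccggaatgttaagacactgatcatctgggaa
The MS4A1 probe read 1.42, 1.81 and 2.14 (lowest, median and highest) in Spleen and -6.19, -5.24 and -5.11 in Jejunum. The SI probe read -8.01, -7.31 and -5.40 in Spleen, where 1 of 6 arrays was above background, and 5.24, 5.72 and 5.97 in Jejunum. The RBP2 probe read -7.39, -6.43 and -0.79 in Spleen, again with 1 array above background, and 6.69, 6.72 and 6.95 in Jejunum. None of the 3 pairs of ranges overlapped, and the highest RBP2 value in Spleen belonged to animal 73.

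Probes named for the same gene did not always read the same way. The sequences of 2 such sets are shown because they change what would be said of the gene. GPX2, a glutathione peroxidase of the gut lining, was the name of 2 probes that share 19 bases on opposite strands (capitals).
GPX2 probe higher in Jejunum: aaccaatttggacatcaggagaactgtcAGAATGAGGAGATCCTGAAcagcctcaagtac
GPX2 probe higher in Spleen: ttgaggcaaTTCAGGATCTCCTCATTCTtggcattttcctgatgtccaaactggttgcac
The first differed by -3.37 ± 0.43 and the second by 2.51 ± 0.29, each past the call threshold. Read on the same strand, the 2 probes differ in bases on both sides of the shared 19. Whether both read GPX2 was not tested, so the gene's direction is uncertain. Of 47 pairs of probes named for the same gene that share 16 or more bases on opposite strands, this was the 1 pair called both ways. In 40 pairs the signs were the same.
MUC13, a membrane mucin of the gut lining, had 5 tested probes; 30 bases of 2 are given, with a closing stretch of 18 bases in capitals.
MUC13 probe reading alike in both tissues: ttcggtccctgcCCTTGCTCAGTGGGTTAA
MUC13 probe higher in Jejunum: atttcattgcccttaaactgcttgcgacct
The brightest MUC13 probe, which stood for the gene, read 9.17 to 10.82 in Spleen and 9.29 to 9.77 in Jejunum (difference 0.26 ± 0.25). The other 4 probes differed by -12.66 to -11.67. The 18 bases in capitals were found in 3 of the 60305 probes, both strands searched (0.005%). A count among probes does not show how common that stretch is in transcripts, and whether it binds other transcripts was not tested. In all, 17 genes had probes called in opposite directions, among them TF, FCN1 and HABP2, so their calls are uncertain.

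B cell genes were higher in Spleen almost throughout. Of 19 tested genes of the B cell receptor and surface list, 16 were higher in Spleen and 0 in Jejunum, with a median difference of 2.86 against 0.13 over all genes; the ranges did not overlap for 18. CR2, the complement receptor of follicular B cells, read -1.08, 0.04 and 0.77 in Spleen and -8.18, -7.90 and -5.55 in Jejunum, where 1 array was above background. Its fitted difference was 7.39 ± 0.44, which takes the dim Jejunum arrays at their measured signal. VPREB1, part of the surrogate light chain of precursor B cells, differed by 7.65 ± 0.32. FCRLA, an intracellular Fc receptor-like protein, differed by 5.79 ± 0.29, while the receptor's signalling subunit CD79B differed by 5.38 ± 0.15. The 3 not called were BLNK, PAX5 and SPIB; PAX5 differed by 0.83 ± 0.18 and SPIB by 0.91 ± 0.13. In whole tissue, fewer cells of a type and less RNA per cell cannot be told apart, here and below.

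Genes of the germinal centre and of follicle building followed in part. Of 10 germinal centre genes 6 were higher in Spleen and 0 in Jejunum (median 1.72). ELL3, an elongation factor of activated B cells, read 1.45, 2.15 and 2.69 in Spleen and -3.71, -3.20 and -2.92 in Jejunum (5.42 ± 0.21). SH2D1A (SAP), an adaptor of helper T cells, differed by 3.94 ± 0.19 and the B cell repressor BACH2 by 3.61 ± 0.20. S1PR2, GCSAM and MYBL1 were among the 4 not called. Of 13 follicle-organising genes 8 were higher in Spleen and 1 in Jejunum (median 2.26). CXCL13, which draws B cells into follicles, read 3.05, 4.03 and 4.62 in Spleen. In Jejunum it read -3.61, -0.73 and 0.35, a wide spread that stayed below every spleen (5.07 ± 0.56). CCR7, the homing receptor of T cells and dendritic cells, differed by 5.21 ± 0.21, and its ligands CCL21 and CCL19 by 2.26 ± 0.26 and 2.12 ± 0.28. The second CCL19 probe differed by -0.18. LTB, a lymphotoxin chain, was higher in Spleen (4.33 ± 0.29), and LTBR, its receptor, was the 1 member higher in Jejunum (-1.13 ± 0.09).

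**Figure D3:**
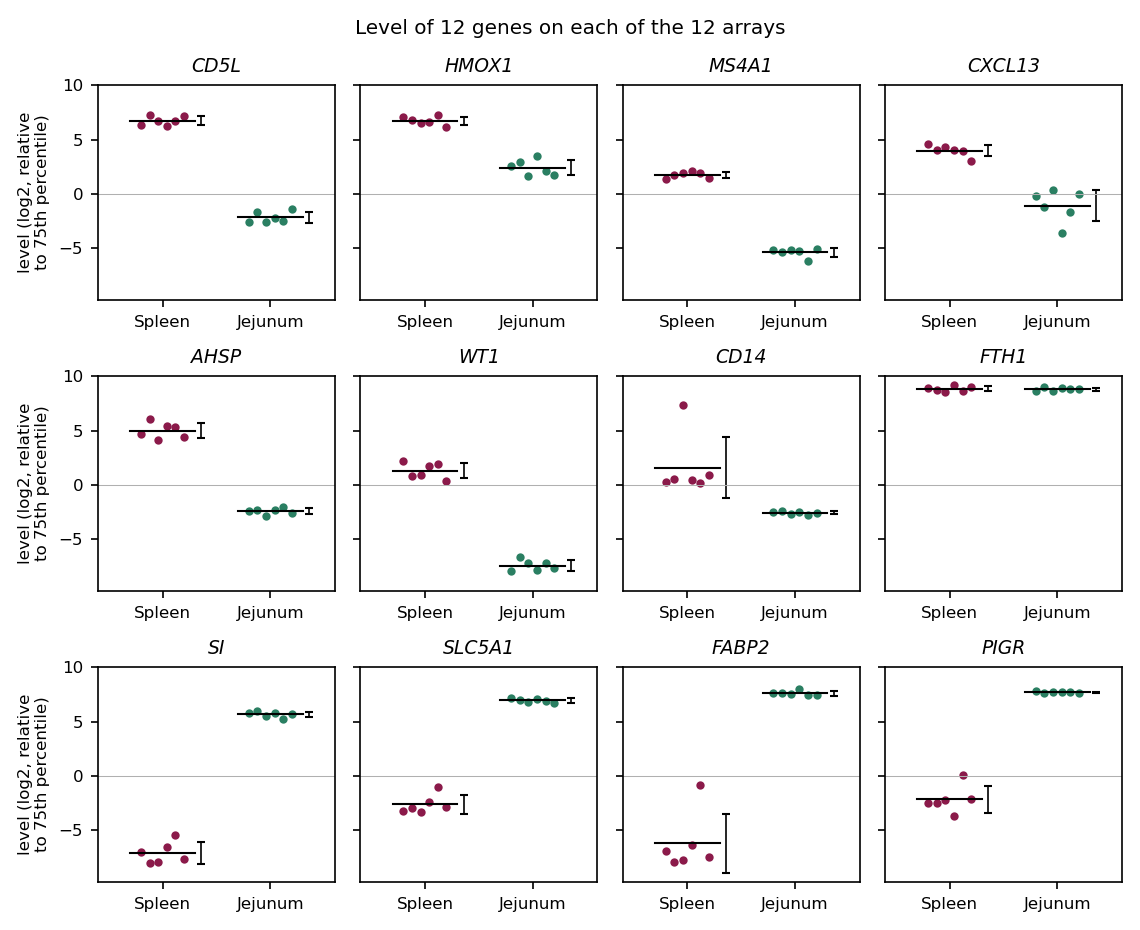
Level of 12 genes on each array (points; y axis, log2 relative to the array's 75th percentile) with the tissue mean (line) and SD (bar, n = 6). CXCL13 varies most in Jejunum, the single high point of CD14 is Spleen 70, the single high point of FABP2 in Spleen is animal 73, and FTH1 reads alike in both tissues.

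T cell genes were also higher in Spleen, but the CD3 chains did not pass the 2-fold limit. Of 17 T cell genes 13 were higher in Spleen and 0 in Jejunum (median 1.45). LEF1, a factor of naive T cells, differed by 3.17 ± 0.18, CD27, a costimulatory receptor, by 2.82 ± 0.22, and CD4 by 2.02 ± 0.14. CD3E read 1.54, 1.69 and 2.51 in Spleen and 0.59, 1.11 and 1.35 in Jejunum (0.85 ± 0.19). CD3D and CD3G differed by 0.65 ± 0.18 and 0.66 ± 0.24, with overlapping ranges. CD8A was higher in Spleen by 1.01 ± 0.30, in 5 of 6 animals, and was not called without animal 69 (0.84) or 70 (0.72).

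Cytotoxic genes split. Of 17 genes of the natural killer and cytotoxic list, 9 were higher in Spleen and 2 in Jejunum (median 1.23). Towards Spleen lay EOMES, a T-box factor (5.05 ± 0.22), and the killer cell receptors KLRC1 (3.69 ± 0.32) and NCR1, the latter at least 9.1-fold higher and above background on no Jejunum array. Towards Jejunum lay the 2 granule proteases GZMA and GZMB. GZMA read -4.44, -1.68 and -0.36 in Spleen and 1.98, 2.84 and 3.46 in Jejunum (-4.67 ± 0.54). GZMB read 0.46, 2.57 and 3.87 in Spleen and 4.36, 5.17 and 5.73 in Jejunum (-2.77 ± 0.48). Neither pair of ranges overlapped. The pore protein PRF1 was not called.

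Macrophage genes gave the largest median of any list towards Spleen, 3.13, with 14 of 17 red pulp macrophage genes higher in Spleen and 0 in Jejunum. CD5L, a scavenger protein secreted by tissue macrophages, read 6.29, 6.71 and 7.32 in Spleen and -2.59, -2.35 and -1.38 in Jejunum. Its difference of 8.91 ± 0.25 was the largest towards Spleen among genes measured on all 12 arrays (adjusted p = 1.4e-11, limma with Benjamini-Hochberg). CD163, the haemoglobin scavenger receptor, differed by 4.30 ± 0.22, the lectins SIGLEC1 and CLEC4F by 4.73 ± 0.48 and 6.23 ± 0.51, and the growth factor receptor CSF1R by 3.97 ± 0.28. CLEC4F was dim in Jejunum, at -4.82 in animal 75 and -8.18 to -7.39 in the others. ITGAD, an integrin chain of splenic macrophages, was above background on no Jejunum array and at least 75.6-fold higher in Spleen. VSIG4 and MRC1 were among the 3 not called, though the 5 probes of VSIG4 ranged from -0.78 to 2.92.

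Genes that take haem apart were higher in Spleen, whereas the ferritin genes were nearly level. Of 17 genes of haem breakdown and iron recycling 9 were higher in Spleen and 0 in Jejunum (median 1.15). HMOX1, which opens the haem ring, read 6.14, 6.70 and 7.26 in Spleen and 1.63, 2.35 and 3.46 in Jejunum (4.32 ± 0.30). The biliverdin reductases BLVRB and BLVRA differed by 2.67 ± 0.18 and 1.26 ± 0.13, and the haem transporter SLC48A1 by 2.13 ± 0.23. FTH1 read 8.55 to 9.18 in Spleen and 8.64 to 8.98 in Jejunum (0.04 ± 0.12), and FTL differed by 0.46 ± 0.12. The plasma proteins CP, TF and HP were higher in Spleen too, by 4.66 ± 0.49, 2.80 ± 0.50 and 1.46 ± 0.52. The HP call was lost without animal 68 (1.03), 71 (1.31) or 75 (1.23). TF and HP were highest in Spleen 68, at 1.80 and 2.29, where hepatocyte markers were also highest (-1.49), and the part of those markers in these differences was not tested. On the side of dietary iron, 3 of 10 genes were higher in Jejunum: ACO1 (-2.54 ± 0.11), TFR2 (-2.53 ± 0.27) and the iron importer SLC11A2 (-1.89 ± 0.29). The second TFR2 probe differed by 0.10. The 3 probes of SLC11A2 ranged from -1.89 to -0.51 with 1 called, so both calls depend on the probe. EPAS1, the hypoxia factor of iron uptake, was higher in Spleen (1.34 ± 0.17), with its 4 probes between 0.41 and 1.48.

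Red cell genes were higher in Spleen for 11 of 16 (0 in Jejunum, median 2.39). AHSP, the chaperone of alpha globin, read 4.17, 5.02 and 6.08 in Spleen and -2.88, -2.36 and -2.05 in Jejunum (7.43 ± 0.29). HBB differed by 6.79 ± 0.33. HBE1, an embryonic globin, was at least 54.5-fold higher in Spleen. Globin genes have near-identical copies, so HBB and HBE1 are uncertain as single genes. SLC4A1, the anion exchanger, differed by -0.59 ± 0.12 at its brighter probe and 4.16 at the other. Among 12 platelet genes 3 were higher in Spleen: NFE2 (5.08 ± 0.30), PPBP (1.53 ± 0.22) and GP1BB (1.21 ± 0.33), the last not called without animal 71 (0.92). VWF was higher in Jejunum (-1.18 ± 0.17). The shares of all genes tested were 15.4% towards Spleen and 15.5% towards Jejunum.

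Myeloid and antigen-presenting genes also lay on the Spleen side. Of 17 neutrophil and granule genes 13 were higher in Spleen (median 2.56), led by S100A8 (6.97 ± 0.51), S100A12 (5.81 ± 0.55) and S100A9 (5.15 ± 0.45), each above background on 2 Jejunum arrays. CXCR2, the neutrophil chemokine receptor, differed by 3.77 ± 0.15. Lactoferrin, LTF, was the 1 member higher in Jejunum (-1.32 ± 0.29), and its second probe differed by -0.61. All 17 tested dendritic cell and MHC class II genes were higher in Spleen, from 1.1 for CD86 to 5.21 for CCR7 (median 2.36). CD86 was not called without animal 69 (0.95). CD207 (langerin) was uneven among spleens, at -4.05, -3.01 and -2.73 in animals 71, 69 and 68 and 1.0, 1.73 and 1.91 in animals 75, 70 and 73. Its range overlapped that of Jejunum (-5.07 to -3.26). Of 17 MHC class I and peptide loading genes 2, SLA-6 and SLA-8, were higher in Spleen and 0 in Jejunum (median -0.15). That share is near the 15.4% of all genes tested. The 4 probes of SLA-8 ranged from -0.17 to 1.16, with 1 called. B2M differed by -0.03 ± 0.13. SLA genes are near-identical relatives, so single SLA calls are uncertain.

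Of 18 genes of Toll-like receptors and their adaptors 10 were higher in Spleen and 0 in Jejunum (median 1.99). TLR2, which senses bacterial lipoproteins, read 1.47, 1.75 and 1.90 in Spleen and -2.86, -2.60 and -1.90 in Jejunum (4.24 ± 0.16). TLR8 and TLR4 differed by 4.05 ± 0.24 and 3.94 ± 0.16, and TLR9 by 2.27 ± 0.14. TLR3 differed by -0.47 ± 0.15 and the adaptor TICAM1 by -0.94, neither called, while the adaptor TICAM2 was higher in Spleen (1.71 ± 0.14). CD14, the co-receptor of TLR4, read 7.33 in Spleen 70 and 0.18 to 0.95 in the other 5 spleens. Its difference was 4.16 ± 1.01 in all animals and 2.99 without animal 70.

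Among 20 cytokine genes 11 were higher in Spleen and 3 in Jejunum (median 1.29). IL6 read -0.54, 0.21 and 0.64 in Spleen and -7.06, -6.15 and -5.63 in Jejunum, where 1 array was above background (6.41 ± 0.25). IL10, which restrains inflammation, differed by 3.26 ± 0.15 and IL27 by 2.74 ± 0.18. CXCL8, the neutrophil attractant, was higher in Jejunum (-3.92 ± 0.40), as were CSF2 (-2.18 ± 0.36) and IL5 (-1.27 ± 0.29). Of 32 interferon-stimulated genes 12 were higher in Spleen and 2 in Jejunum, against 15.4% and 15.5% of all genes tested (median 0.67). CXCL9 and BST2 led towards Spleen (3.10 ± 0.38 and 2.99 ± 0.19). OAS1 read -0.07, 1.21 and 2.89 in Spleen and 3.91, 5.02 and 5.39 in Jejunum (-3.40 ± 0.43), and GBP2 also lay towards Jejunum (-1.69 ± 0.36).

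The complement list held large differences both ways: 9 of 22 genes were higher in Spleen and 7 in Jejunum (median 0.53). The chains of C1q, made by macrophages, were higher in Spleen. C1QA read 6.05, 6.39 and 6.73 in Spleen and 2.85, 3.30 and 3.68 in Jejunum (3.13 ± 0.15), with C1QB at 3.22 ± 0.16 and C1QC at 3.33 ± 0.13. CD55, which protects host cells, differed by 4.37 ± 0.18. Among later components C3, C5 and C6 were higher in Jejunum, and C7 was not called (0.93 ± 0.24; 1.05 and called without animal 70). C5 read -4.94, -4.03 and -3.02 in Spleen and 4.58, 4.97 and 5.27 in Jejunum (-9.05 ± 0.29). C6 differed by -7.38 ± 0.22, CFB by -5.96 ± 0.29 and C3 by -3.23 ± 0.13. C9, another terminal component, lay in the hepatocyte list and differed by -9.13 ± 0.58, with 1 Spleen array above background.

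Genes of the splenic framework were few on the array. WT1, a factor of splenic and mesothelial development, read 0.39, 1.35 and 2.18 in Spleen, was above background on no Jejunum array, and was at least 139.7-fold higher in Spleen. NR2F2 was the other of 5 patterning factors called higher in Spleen (2.02 ± 0.20). TCF21 differed by 0.54 ± 0.21 and was not called, nor was LHX2. Endothelial genes went both ways, with 5 of 18 higher in Spleen and 4 in Jejunum (median 0.15). CLEC4G, a lectin of sinusoidal endothelium, read 0.77, 3.02 and 3.45 in Spleen and -7.20, -6.60 and -5.27 in Jejunum (9.15 ± 0.46). Its second probe differed by 1.67. FCN2, a ficolin, read -2.51, 1.11 and 2.24 in Spleen and 6.94, 7.21 and 7.96 in Jejunum (-6.88 ± 0.72). Of 29 collagen and matrix genes 3 were higher in Spleen, the proteoglycan BGN (3.78 ± 0.21), elastin, ELN (3.37 ± 0.27), and LAMA2 (1.45 ± 0.16). The 9 higher in Jejunum included POSTN, periostin (-4.03 ± 0.34), and LAMB1 (-2.38 ± 0.16). Among all genes tested 15.4% were higher in Spleen and 15.5% in Jejunum. The median of that list was 0.03 and turned to -0.06 with median centring.

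Genes of IgA transport and gut homing went both ways. Of 12 tested, 6 were higher in Jejunum and 5 in Spleen (median -0.66). PIGR, which carries IgA across the epithelium, read -3.68, -2.37 and 0.13 in Spleen and 7.63, 7.70 and 7.79 in Jejunum (-9.86 ± 0.45). CCL25, the small intestinal homing chemokine, differed by -8.96 ± 0.39 and its receptor CCR9 by -1.81 ± 0.14. CCL28, the other mucosal chemokine, differed by -5.66 ± 0.88 with 3 Spleen arrays above background, and its receptor CCR10 by -1.16 ± 0.16. ALDH1A1, which makes retinoic acid, differed by -7.63 ± 0.28. On the Spleen side were MADCAM1, the vascular address for gut-homing cells (3.28 ± 0.16), the integrin chains ITGA4 (3.05 ± 0.20) and ITGB7 (1.15 ± 0.22), TGFB1 (2.36 ± 0.12) and GPR15 (1.62 ± 0.17). ITGB7 was not called without animal 70 (0.97), and its second probe differed by 0.42. Plasma cell genes were close: 2 of 9 were higher in Spleen, against 15.4% of all genes tested, and 0 in Jejunum (median 0.65). The 2 were DERL3 (1.90 ± 0.15) and IGJ, the joining chain (1.36 ± 0.30). The 3 probes of DERL3 ranged from 0.44 to 1.91, with 2 called.

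**Figure D4:**
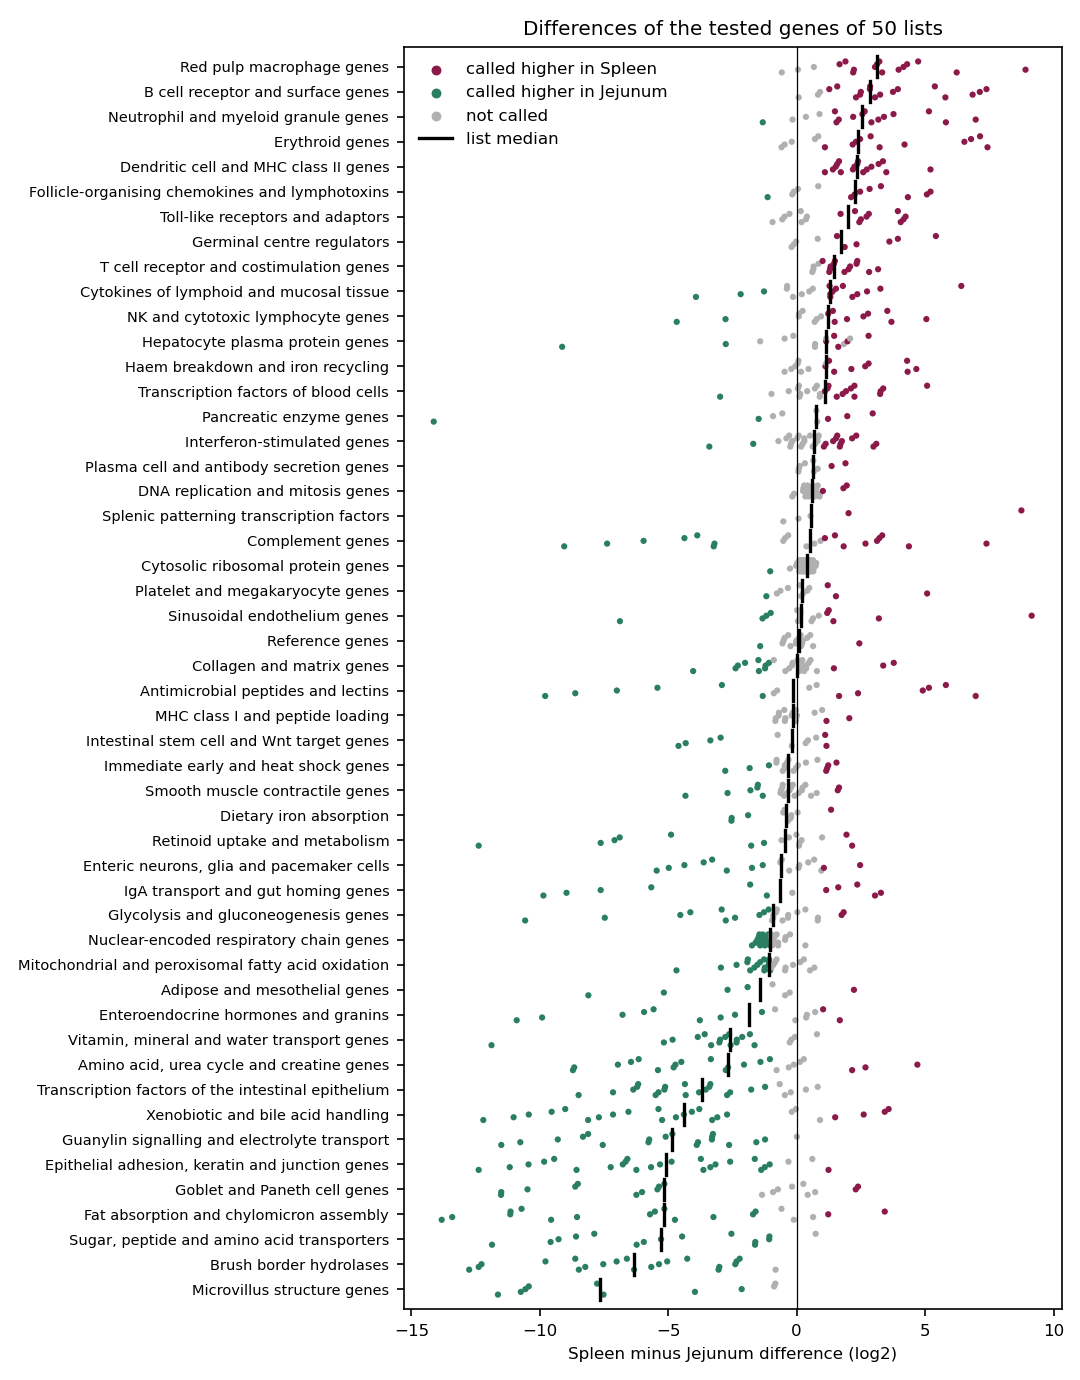
Spleen minus Jejunum difference (x axis, log2) of each tested gene in 50 gene lists (rows, sorted by median), coloured by call, with the list median as a black bar. Medians run from -7.65 for microvillus genes to 3.13 for red pulp macrophage genes, and several lists near 0 hold genes far out on both sides.

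Digestive enzymes and the brush border were higher in Jejunum nearly without exception. Of 21 brush border hydrolases 20 were higher in Jejunum and 0 in Spleen, with a median of -6.33. SI, whose probe is printed above, differed by -12.75 ± 0.38. It was above background on 1 Spleen array, so the other spleens give only a limit. The meprin chain MEP1A was above background on no Spleen array and at least 1367.5-fold higher in Jejunum. ENPEP, glutamyl aminopeptidase, read -4.46, -3.42 and -2.60 in Spleen and 5.93, 6.24 and 6.44 in Jejunum (-9.78 ± 0.25). LCT, lactase, differed by -8.48 ± 0.26 and MGAM, maltase-glucoamylase, by -8.62 ± 0.18. ANPEP, aminopeptidase N, differed by -6.33 ± 0.24 but was measured well in Spleen, at 0.47 to 1.93. ACE was the 1 gene not called (-0.82 ± 0.24), while another of its 3 probes differed by -5.94. Of 10 genes of microvillus structure 8 were higher in Jejunum (median -7.65). VIL1, villin, which bundles actin in microvilli, differed by -11.63 ± 0.38 with 1 Spleen array above background, and CDHR2, an adhesion protein between microvilli, was at least 390.7-fold higher in Jejunum. EZR and EPS8 were not called.

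Transporters followed the same side. Of 15 sugar, peptide and amino acid transporters 14 were higher in Jejunum and 0 in Spleen (median -5.28, or -4.46 with bounds). SLC5A1, the sodium-glucose cotransporter, read -3.29, -2.90 and -1.01 in Spleen and 6.68, 6.99 and 7.22 in Jejunum (-9.58 ± 0.32). SLC15A1, the peptide transporter, was at least 1115.9-fold higher in Jejunum, and SLC1A1, for glutamate, at least 182.5-fold. SLC16A1 was not called. For vitamins, minerals and water, 16 of 20 genes were higher in Jejunum and 0 in Spleen (median -2.60, or -2.46 with bounds). S100G, the calcium carrier calbindin, read 2.38 in Spleen 73 and -5.36 to -4.51 in the other 5 spleens, against 7.64, 8.26 and 8.78 in Jejunum. Its difference was -11.88 ± 1.08, and -13.08 without Spleen 73, while its 3 probes ranged from -12.45 to -0.47. VDR, the vitamin D receptor, was at least 17.3-fold higher in Jejunum. The zinc importer SLC39A4 differed by -4.83 ± 0.17.

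Guanylin and electrolyte genes were higher in Jejunum for 18 of 19 (0 in Spleen, median -4.84, or -3.89 with bounds). GUCA2A, the hormone guanylin, read -2.76, -2.42 and -0.98 in Spleen and 6.74, 7.04 and 7.59 in Jejunum (-9.30 ± 0.29). CLCA4 differed by -10.76 ± 0.45, with 4 Spleen arrays above background. SLC26A3, the chloride exchanger, was at least 72.8-fold higher in Jejunum, and CFTR, the chloride channel, at least 8.1-fold. SLC4A7 was not called.

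Fat and retinoid genes were called in both directions. Of 19 fat absorption genes 14 were higher in Jejunum and 2 in Spleen (median -5.15, or -4.74 with bounds). FABP2, the intestinal fatty acid binding protein, read -7.92, -7.19 and -0.83 in Spleen and 7.44, 7.56 and 8.01 in Jejunum. Its difference was -13.82 ± 0.97, and Spleen 73 was the 1 Spleen array above background, so the other 5 spleens give only a limit. APOA4 differed by -13.41 ± 1.24 with 1 Spleen array above background. MTTP, which loads lipid onto chylomicrons, was above background on all 12 arrays and differed by -9.56 ± 0.41. FABP6, the bile acid binding member of the FABP family, read 2.08, 2.42 and 3.50 in Spleen and -2.21, -1.30 and 1.66 in Jejunum (3.43 ± 0.58). PLIN2, of lipid droplets, was also higher in Spleen (1.23 ± 0.19). Among 16 retinoid genes 7 were higher in Jejunum and 2 in Spleen (median -0.44). RBP2 led (-12.38 ± 0.87), followed by BCO1, which cleaves carotene (at least 47.5-fold), and LRAT, which esterifies retinol (-6.89 ± 0.40, 1 Spleen array above background). DHRS9 and CRABP1 were higher in Spleen (2.16 ± 0.15 and 1.94 ± 0.37).

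Secretory cells of the lining were seen on the Jejunum side. Of 19 goblet and Paneth cell genes 10 were higher in Jejunum and 2 in Spleen (median -5.15). CLCA1, secreted with mucus, differed by -11.50 ± 0.46 and the lectin ITLN2 by -10.48 ± 0.90, each with 2 Spleen arrays above background. REG4 differed by -11.51 ± 0.82 with 1. MUC2, the main goblet mucin, was not called at its brighter probe (-0.92 ± 0.28), and its other probe differed by -5.57. DEFB1, a defensin, and KLK1 were higher in Spleen (2.39 ± 0.23 and 2.30 ± 0.18). The second DEFB1 probe differed by 0.26. Of 16 enteroendocrine genes 9 were higher in Jejunum and 2 in Spleen (median -1.87, or -1.63 with bounds). Somatostatin, SST, differed by -10.90 ± 0.46 with 1 Spleen array above background, glucagon, GCG, by -9.91 ± 0.41 with 2, and cholecystokinin, CCK, by -5.57 ± 0.25 with all 6. The granins SCG3 and SCG5 were higher in Spleen (1.68 ± 0.39 and 1.03 ± 0.17), SCG5 not without animal 68, 69, 70 or 73 (0.95 to 0.99). CHGA, a granin of endocrine cells, differed by 0.40 ± 0.15 at its brightest probe and by as much as -8.64 at another. Antimicrobial genes went 6 each way among 16 (median -0.13, and 0.19 with normexp background correction). LEAP2 was at least 203.3-fold higher in Jejunum, and BPI differed by -7.00 ± 0.35.

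Epithelial identity genes and their regulators were higher in Jejunum. Of 26 adhesion, keratin and junction genes 23 were higher in Jejunum (median -5.10). LGALS4, a galectin of the gut lining, read -2.92, -2.65 and 1.45 in Spleen and 8.31, 8.42 and 8.66 in Jejunum (-10.44 ± 0.62). EPCAM differed by -11.17 ± 0.67, KRT20 by -12.38 ± 0.88 and KRT8 by -9.44 ± 0.79, with 3, 1 and 6 Spleen arrays above background. KRT7, a keratin of simple epithelia, was the 1 member higher in Spleen (1.24 ± 0.28). It was highest in Spleen 73, at 0.28, and differed by 0.96 without that array, no longer called. Of 24 intestinal transcription factors 19 were higher in Jejunum and 0 in Spleen (median -3.67, or -3.47 with bounds). KLF5, a factor of crypt cells, differed by -7.15 ± 0.38 and GATA5 by -4.35 ± 0.17. Among 25 factors of blood cells 13 were higher in Spleen (median 1.1), led by NFE2, by KLF2 of naive lymphocytes (3.37 ± 0.16) and by HHEX (3.27 ± 0.14). MYB, a factor of progenitors, was the 1 of them higher in Jejunum: it read -2.20, -1.83 and -1.41 in Spleen and 0.84, 1.22 and 1.31 in Jejunum (-2.98 ± 0.15). Of 11 stem cell and Wnt target genes 4 were higher in Jejunum, led by LGR4 (-4.60 ± 0.38) and ASCL2 (-4.32 ± 0.52), and CD44 and BMI1 were higher in Spleen. Of 25 DNA replication and mitosis genes 3 were called, CCNE1, RRM2 and MCM3, all higher in Spleen (median 0.61), a share near the 15.4% of all genes tested. The count was 5 without animal 68, 2 without animal 69 or 71, and 7 without the 2 Spleen arrays of lowest signal. MCM3 lost its call without animal 69 (0.86) or 71 (0.95).

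**Figure D5:**
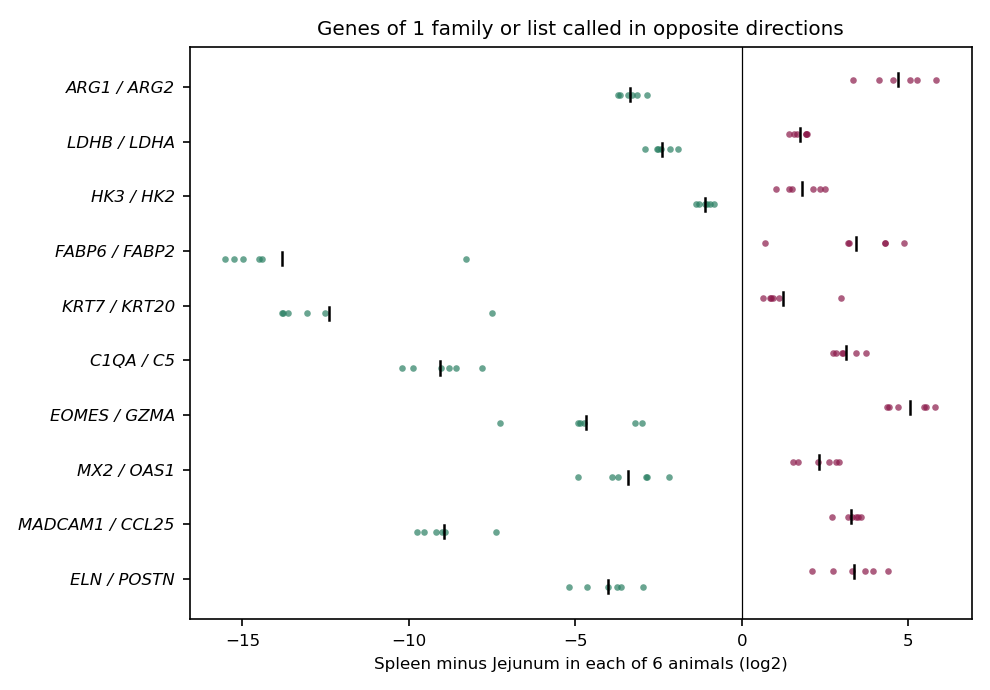
Spleen minus Jejunum difference in each of the 6 animals (points; x axis, log2) for 10 pairs of genes from one family or list, with the mean as a black bar. The pairs were chosen because their calls were opposite, and in each the first gene lies right of 0 and the second left of 0 in all 6 animals.

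Muscle and nerve genes were called in both directions. Of 24 smooth muscle genes 6 were higher in Jejunum and 2 in Spleen (median -0.33), against 15.5% and 15.4% of all genes tested. The ranges did not overlap for 8 of them, against 46.2% of all genes. ACTG2, enteric actin, read 5.59, 6.49 and 6.60 in Spleen and 6.64, 7.77 and 8.18 in Jejunum (-1.32 ± 0.25). Its second probe differed by -0.34. Jejunum 71 was the lowest jejunum for ACTG2 at 6.64 and for the list mean. ACTA2, vascular smooth muscle actin, was higher in Spleen (1.60 ± 0.15), as was CNN2 (1.65 ± 0.17). MYH11, DES and CNN1 were not called. HHIP differed by -4.33 ± 0.31 with 1 Spleen array above background, and MYOCD, the master factor of the lineage, by -1.51 ± 0.18. Of 18 genes of enteric neurons, glia and pacemaker cells 8 were higher in Jejunum and 2 in Spleen (median -0.61). The neurofilament gene NEFM was at least 6.8-fold higher in Jejunum and PRPH, peripherin, at least 6.7-fold. STMN2, a neuronal tubulin regulator, was higher in Spleen (2.47 ± 0.24), as was the glial gene S100B (1.06 ± 0.19), which sat at the 2-fold limit and was not called without animal 70.

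Detoxification genes were higher in Jejunum for 18 of 25 and in Spleen for 4 (median -4.39, or -4.35 with bounds). SLC51B, which exports bile acids from enterocytes, read -7.91, -7.25 and -0.79 in Spleen and 5.74, 5.92 and 6.25 in Jejunum (-12.20 ± 0.98). The -0.79 was Spleen 73. The other spleens lay at -7.91 to -6.45, as low as for FABP2, whose levels there give only a limit. The glutathione transferases GSTA2 and GSTA1 differed by -11.02 ± 0.97 and -10.43 ± 0.87, and the carboxylesterases CES1 and CES3 by -9.01 ± 0.73 and -9.16 ± 0.82. CES1 and CES3 read -0.20 and 0.01 in Spleen 68 and -5.07 and -5.02 in Spleen 70, the spleens with the highest and lowest hepatocyte markers, a relation that was not tested. Members of both families are near-identical, so the single genes are uncertain. SULT1A3, a sulfotransferase, was higher in Spleen (3.58 ± 0.11), as were FABP6, CYP1B1 and CYP4A21.

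Genes of the respiratory chain and of fatty acid oxidation were called in 1 direction, higher in Jejunum. Of 31 respiratory chain genes 18 were higher in Jejunum and 0 in Spleen, all between -1.74 and 0.34 (median -1.04). The ranges did not overlap for 27 of them. COX5A, of cytochrome oxidase, read 4.05, 4.13 and 4.21 in Spleen and 5.53, 5.85 and 6.11 in Jejunum (-1.74 ± 0.10). With the list median close to the call threshold, its count moved with scaling, to 11 under quantile normalisation and 22 under median centring. For fatty acid oxidation 16 of 27 genes were higher in Jejunum and 0 in Spleen (median -1.08). PPARGC1A, the coactivator of mitochondrial growth, read -2.26, -2.04 and -1.89 in Spleen and 2.30, 2.50 and 3.05 in Jejunum (-4.68 ± 0.14).

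Of 24 glycolysis and gluconeogenesis genes 10 were higher in Jejunum and 2 in Spleen (median -0.91). KHK, ketohexokinase, differed by -4.14 ± 0.14. PCK1, of glucose synthesis, differed by -4.53 ± 0.35. The 2 subunits of lactate dehydrogenase parted: LDHA read 4.05, 4.26 and 4.45 in Spleen and 6.35, 6.57 and 7.01 in Jejunum (-2.40 ± 0.13). LDHB read 5.15, 5.22 and 5.34 in Spleen and 3.28, 3.45 and 3.72 in Jejunum (1.75 ± 0.10). The hexokinases parted as well, HK3 of myeloid cells to Spleen (1.83 ± 0.24) and HK2 to Jejunum (-1.09 ± 0.15).

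Amino acid and urea cycle genes were higher in Jejunum for 15 of 23 and in Spleen for 3 (median -2.67). NAGS and OTC, the mitochondrial start of citrulline synthesis, differed by -8.66 ± 0.29 and -8.71 ± 0.40, with 5 and 4 Spleen arrays above background. ASS1 read -0.27, 0.54 and 1.39 in Spleen and 6.11, 6.80 and 7.06 in Jejunum (-6.15 ± 0.26). OAT, of proline and ornithine exchange, differed by -4.49 ± 0.11. The arginases split between tissues. ARG1, the cytosolic form, read 0.77, 1.69 and 2.41 in Spleen and -3.63, -2.98 and -2.58 in Jejunum (4.70 ± 0.30). ARG2, the mitochondrial form, read -3.63, -3.32 and -3.0 in Spleen and -0.41, 0.04 and 0.36 in Jejunum (-3.34 ± 0.17). GLUL, glutamine synthetase, and GATM, of creatine synthesis, were the others higher in Spleen (2.68 ± 0.12 and 2.16 ± 0.14).

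Genes of general upkeep were close. Of 69 cytosolic ribosomal protein genes 1 was called, RPS7 (-1.03 ± 0.28), and the median was 0.39. RPS7 was not called without animal 68 (-0.98), 69 (-0.92) or 70 (-0.95). Among 17 reference genes ACTB differed by -0.01 ± 0.11 and GAPDH by -0.33 ± 0.11, while HPRT1 was higher in Spleen (2.44 ± 0.12) and SDHA higher in Jejunum (-1.42 ± 0.09). The list's median was 0.09. Immediate early and heat shock genes were called in 7 of 19 cases, against 30.9% of all genes tested. They went 4 to Spleen and 3 to Jejunum (median -0.32). HSP70.2 and FOS were higher in Jejunum (-2.78 ± 0.45 and -1.83 ± 0.46).

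Lists of neighbouring organs held single genes with large differences. In the pancreatic list SPINK1, the trypsin inhibitor, read 1.98 in Spleen 73 and -7.99 to -6.52 in the other 5 spleens, against 8.11, 8.28 and 8.41 in Jejunum. Its difference was -14.13 ± 1.39, and 1 Spleen array was above background. The list otherwise had 3 of 9 genes higher in Spleen and 1 more, CPA1, higher in Jejunum. CPA1 was not called without animal 69 (-1.39) or 71 (-0.81). In the adipose list CIDEC, a lipid droplet protein, differed by -8.11 ± 0.37 and PLIN1 by 2.23 ± 0.25. In the hepatocyte list 5 of 15 genes were higher in Spleen and 2 in Jejunum (median 1.15), with TF and HP described above.

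The largest differences among genes measured on all 12 arrays also included genes outside the functional groups above. Towards Spleen were KAZALD1, a secreted protein of the insulin-like growth factor binding type (6.29 ± 0.21), the serine dehydratase SDS (5.49 ± 0.57) and the cadherin CDH2 (5.48 ± 0.25). CDH2 read 3.05, 3.37 and 4.50 in Spleen and -2.74, -1.92 and -1.55 in Jejunum. Towards Jejunum was C19orf77, read at 0.78 in Spleen 73, -4.31 to -3.08 in the other 5 spleens and 7.40 to 8.08 in Jejunum (-10.64 ± 0.68). The carboxypeptidase CPO and the proline-rich protein PRR15 were above background on no Spleen array and at least 268.2-fold and 206.8-fold higher in Jejunum. HABP2, a plasma serine protease, was at least 27.5-fold higher in Spleen at its brighter probe, but its second probe differed by -1.44.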

How the data were processed

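RNA of the 24 pig tissue samples was labelled with Cy3 and hybridised to one-colour Agilent arrays. The deposited scanner files hold intensity values made with Agilent Feature Extraction 10.10.1.1, per the file headers; the processed intensity is background-subtracted and was not normalised between arrays. Their 0 or 1 flags for background, saturation and spot outliers are of another kind and were used as deposited, per the file headers. The authors' deposited value table holds log2 values, used only as an alternative. Its differences correlated at 0.969 with scanner differences after centring each slide set and at 0.589 with the plain ones, over 40575 probes, so it does not keep the difference between slide sets. Its exact scaling was not stated.

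From the scanner files, log2 processed intensity minus each array's 75th percentile was fitted for the Spleen and Jejunum arrays (12) in limma 3.58.1 (R 4.3.3); the model held tissue alone. Control probes and 66 probes with outlier flags were left out, and probes were kept if every one of the 6 Spleen arrays, or of the 6 Jejunum arrays, was well above background. This left 40764 probes, over which p-values were adjusted (Benjamini-Hochberg). Symbols came from the files and from RefSeq and Ensembl name tables; 54.3% of tested probes had one. A gene was read by its probe of highest mean over the 12 arrays. A lower bound of a fold set the bright tissue's mean against, per dim array, the higher of the probe's own value and the lowest signal well above background. No probe was saturated. The 6 arrays per tissue limit the precision. On simulated data of 40764 probes with independent noise, 40564 probes were left unchanged. There 88% of 100 changes of 1.5 and 97% of 100 changes of 2.5 on the log2 scale were called. In the real data 12869 probes were called, so these rates need not carry over.

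Samples with one number come from the same pig, per the labels. Deviations from the tissue mean correlated at 0.0558 on average within a pig (-0.019 to 0.301) and at -0.0114 between pigs. The alternatives changed the block, samples, scaling, background, dim-probe filter, probe choice and test.

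The gene lists and the comparison were chosen with earlier results of these data known. Genes named were the 12 largest differences each way among genes well above background on all 12 arrays and alike in direction in all 6 animals, the 6 largest lower bounds each way, and up to 4 members of largest difference per list, plus members that account for counts of 5 or fewer. Outside that rule, these were chosen after their values were seen: ACE, ACTB, ACTG2, ANPEP, ARG2, ASS1, B2M, BLNK, BLVRA, BLVRB, C1QA, C1QB, C1QC, C3, C7, CCK, CCL19, CCL21, CCR10, CCR9, CD3D, CD3E, CD3G, CD4, CD55, CD86, CD8A, CFTR, CHGA, CNN1, CSF1R, DES, EPS8, EZR, FTH1, FTL, GAPDH, GATA5, GCSAM, GPX2, HK2, LCT, LDHA, MGAM, MRC1, MUC13, MUC2, MYBL1, MYH11, MYOCD, OAT, PAX5, PRF1, S1PR2, SLC16A1, SLC48A1, SLC4A1, SLC4A7, SPIB, TICAM1, TICAM2, TLR3, TLR9, VDR and VSIG4. Genome positions were not used here. Some genes that the rule selects are not reported here.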

Additional observations from a re-analysis of the deposited data

Results flagged for a closer look

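In 42 of 590 sets of 6 values (245 named genes and 50 list means in both tissues), 1 array stood farther from the others than Dixon's 95% critical value allows. Chance gives about 1 in 20. Values are log2 levels relative to the array's 75th percentile.

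Among the list means, smooth muscle genes were lowest in Jejunum 71, at 2.01 against 2.68 to 3.04 in the other 5 jejuna. The mean of the Toll-like receptor and adaptor list was highest in Spleen 70, at 1.07 against 0.64 to 0.73. That list holds CD14, which read 7.33 on that array against 0.18 to 0.95 in the other 5 spleens. The list mean without CD14 was not tested. Glycolysis genes were highest in Spleen 75, at 1.55 against 1.29 to 1.36.

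Spleen 73 was the highest spleen for APOA4 (1.56), C19orf77 (0.78), CCL25 (0.37), EPCAM (-1.23), FABP2 (-0.83), KRT20 (-1.74), KRT7 (0.28), LGALS4 (1.45), MTTP (-1.19), RBP2 (-0.79), REG4 (-2.01), S100G (2.38), SLC51B (-0.79) and SPINK1 (1.98). The epithelial marker mean on that array was -1.50.

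Jejunum 69 was the highest jejunum for ELN (2.23). Jejunum 70 was the lowest jejunum for SLC15A1 (4.30). Jejunum 71 was the highest jejunum for ALDH1A1 (4.57), FABP2 (8.01) and RBP2 (6.95). Jejunum 71 was the lowest jejunum for CD44 (0.27), CNN1 (4.65) and DES (5.70). Jejunum 73 was the lowest jejunum for MS4A1 (-6.19), SIGLEC1 (-7.22) and SLC4A7 (-4.02). Jejunum 75 was the highest jejunum for CLEC4F (-4.82), FCN2 (7.96) and TFR2 (1.29). Jejunum 75 was the lowest jejunum for OAS1 (3.91). Spleen 68 was the highest spleen for CDH2 (4.50) and GATM (-0.60). Spleen 68 was the lowest spleen for ASCL2 (-6.91). Spleen 70 was the highest spleen for BACH2 (0.33), CD14 (7.33) and CD86 (4.26). Spleen 70 was the lowest spleen for ACTA2 (6.89). Spleen 71 was the highest spleen for LHX2 (-2.70) and SLC39A4 (0.18). Spleen 75 was the lowest spleen for CLEC4G (0.77).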

How the results depend on the processing

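The count of 3315 genes stayed between 2559 (normexp background correction) and 3662 (no filter on dim probes) under all alternatives except 2. With limma's treat at a 2-fold change it was 2127, of which 972 were higher in Spleen. With the authors' deposited values it was 2074, 1007 higher in Spleen and 1067 in Jejunum; 1333 of the 3315 calls were kept. Leaving out 1 animal gave 3231 to 3377 calls (1573 to 1709 higher in Spleen and 1651 to 1678 in Jejunum), and leaving out Spleen 73 gave 3361. Pairing the tissues by animal, as a replicate block, gave 3315 calls, 9 lost and 9 gained. Leaving out the 2 Spleen arrays of lowest signal, a choice made after seeing the data, gave 3292. The near-even split between tissues depended on scaling and filter. Median centring gave 1492 genes higher in Spleen and 1787 in Jejunum. Keeping only probes well above background on all 12 arrays gave 1444 and 1146.

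Of 211 called genes named in the text, 173 kept their call under every alternative but the authors' values. Those values are centred within slide sets, and each set held 1 of the tissues, so by construction they do not keep a difference between the sets. Opposite signs were found there for ACTG2 (2.39), ARG1 (-2.54), BLVRA (-0.58), BLVRB (-0.54), CCR10 (0.89), CCR9 (0.92), CD14 (-1.07), CD207 (-0.06), CLEC4F (-0.42), CP (-3.80), CRABP1 (-0.17), CSF2 (0.21), CYP4A21 (-3.54), DEFB1 (-0.09), GATM (-2.74), GBP2 (0.59), GLUL (-0.52), GPX2 (-0.02), GZMA (0.29), GZMB (0.27), HABP2 (-1.15), HK2 (1.21), HP (-4.65), HPRT1 (-0.15), IL5 (0.23), ITLN2 (0.43), KRT7 (-0.13), MYB (0.57), REG4 (0.05), RPS7 (0.51), S100G (0.02), SULT1A3 (-0.21), TF (-4.88) and VWF (0.28). One more reversal, GPX2 at -0.43, came from averaging the opposed probes under that name. The median of the enteroendocrine list turned from -1.87 to 0.16 and that of the stem cell list from -0.19 to 0.44 when only genes bright on all 12 arrays were kept, which removes genes dim in one tissue. Dim genes have only a bound, tissue and slide set cannot be told apart, and whole tissue does not separate cell number from level per cell.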
